A study of Mus musculus with 9 samples.

Results

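The oncofetal let-7 target genes are 9 mouse genes known as conserved targets of the microRNA let-7, Lin28b left aside: Igf2bp1, Igf2bp2, Igf2bp3, Trim71, Hmga1, Hmga2, Arid3b, Ncoa3 and Rdx. They were chosen by gene symbol, and 7 of the 9 have a row among the 15977 genes of the deposited table. Igf2bp1 and Hmga2 have no row under their symbols or gene IDs, and their levels are not analysed here. How genes were admitted to the table is not given. The RNA came from N2A cells, which derive from a mouse neuroblastoma, with Mov10, the gene of an RNA helicase, knocked out in all 9 libraries. The cells received 2 micrograms of DNA for S970D MOV10 (aspartate at serine 970, a charged stand-in for phosphoserine), S970A MOV10 (alanine, which cannot be phosphorylated) or WT MOV10, with 3 libraries each, and RNA was taken after 24 hours. The labels give neither the species of the transfected DNA nor whether the knockout line is a single clone, and no untransfected library was analysed here. Whether replicates are separate cultures is not stated, and the p-values speak only of the spread among these libraries, which may be technical.

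Let-7 is a microRNA family that accumulates as cells differentiate. It guides Argonaute proteins to messenger RNAs whose 3′ untranslated region (3′ UTR) pairs with the let-7 seed, and the targeted messages are translated less and decay faster. Its best known targets are oncofetal genes, which are on in the embryo, off in most adult tissue and on again in many tumours. In neuroblastoma LIN28B, which blocks let-7 maturation, is a known oncogene. MOV10 binds Argonaute and acts on 3′ UTRs of messages.

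The let-7 seed, bases 2 to 8 counted from the 5′ end, is shared by 10 mature mouse let-7 family members in the RefSeq table used here (GRCm38.p6). Let-7a is shown because every site below is a match to its seed, in capitals:
mmu-let-7a-5p: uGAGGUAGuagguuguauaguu
Matches were searched on the mRNA strand of each 3′ UTR, in the GENCODE vM21 transcript with the highest APPRIS rank (GRCm38). An 8mer is CTACCTCA. A 7mer-m8 is CTACCTC not followed by A, and a 7mer-A1 is TACCTCA not preceded by C, so the 3 kinds do not overlap. Each of the 9 genes holds at least 1 match. The following windows of 30 bases end with the base opposite let-7 base 1 and give the 8mer nearest the stop codon for each measured gene, or its nearest 7mer where it has no 8mer. Capitals mark the match to the seed, with the A opposite base 1 where it is part of the match.
Rdx 8mer: catcaactctgagaacaaaataCTACCTCA
Igf2bp2 8mer: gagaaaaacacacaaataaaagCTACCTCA
Igf2bp3 8mer: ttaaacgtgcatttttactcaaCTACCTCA
Trim71 8mer: aaagtacaacattgcctaagtcCTACCTCA
Ncoa3 7mer-m8: gttcagctcatagggtctcttaCTACCTCt
Hmga1 7mer-m8: catcttctcctctgttcacaaaCTACCTCt
Arid3b 7mer-A1: aaaggagattgatgcacagaattTACCTCA

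On GRCm38 these windows lie at chr9:52087433-52087462 on the plus strand (Rdx), chr16:22059473-22059502 on the minus strand (Igf2bp2), chr6:49086787-49086816 on the minus strand (Igf2bp3) and chr9:114512472-114512501 on the minus strand (Trim71). The 7mer windows lie at chr2:166071588-166071617 on the plus strand (Ncoa3), chr17:27563270-27563299 on the plus strand (Hmga1) and chr9:57792443-57792472 on the minus strand (Arid3b). All are in the 3′ UTR. Trim71 has the most matches of the measured genes, 4 8mers and 2 7mer-A1 sites in a 3′ UTR of 5512 bases. A pair of its 8mers starts 3591 and 3617 bases after the stop codon. Igf2bp2 has 1 8mer and 1 7mer-A1 site, which start at bases 1313 and 1330 of a 3′ UTR of 1784 bases. Rdx and Igf2bp3 have 1 8mer each. Ncoa3 has 2 7mer-m8 sites and Hmga1 has 1. Arid3b has no 8mer, but 4 7mer-A1 sites and 1 7mer-m8 site spread over 2160 bases. Of the genes without a row, Igf2bp1 has 3 8mers among 5 sites and Hmga2 has 1 8mer among 7 sites.

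An 8mer is uncommon. Among the 12991 genes of the table with an annotated 3′ UTR, 419 hold an 8mer (3.23%) and 18 hold 2 or more (0.139%). Any of the 3 kinds is found in 15.3%. Longer 3′ UTRs hold more: within 25% of the length of the Trim71 3′ UTR, 11.2% of 641 genes hold an 8mer, and within 25% of the Rdx length 4.34% of 2121 do. Within 25% of the lengths for Igf2bp2 and Igf2bp3 the shares are 3.59% and 4.12%. A match describes letters in the annotated sequence and does not show that let-7 binds there, and let-7 itself was not measured in these poly(A)-selected libraries.

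**Figure D1:**
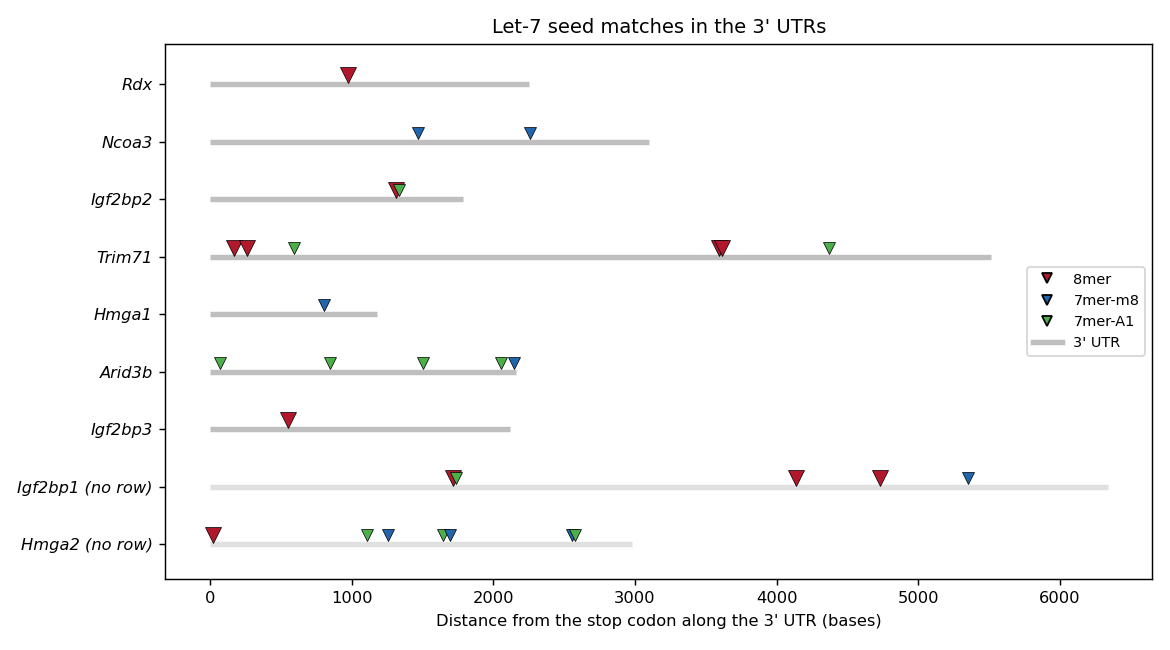
Let-7 seed matches along the 3′ UTR of the 9 genes. The x axis is the distance from the stop codon in bases, each grey line is a 3′ UTR to scale, and triangles mark 8mer, 7mer-m8 and 7mer-A1 sites. Trim71 carries 4 8mers, Arid3b carries 5 sites and no 8mer, and the pale lines are the 2 genes without a row in the table.

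The table gives log2 CPM, the log2 of reads per gene relative to the size of the library. It holds no read numbers, and sequencing depth is unknown. The first principal component of all genes other than Mov10 placed S970A replicate 1 (0.40) among the S970D libraries (0.25 to 0.44), away from S970A replicates 2 and 3 (-0.22 and -0.33), which lay between the WT libraries (-0.46 to -0.044). Differences of the 7 measured oncofetal genes that involve S970A are therefore given with and without S970A replicate 1. Values of S970A for gene lists and site classes include that library and were not computed without it. Mov10 was at 14.57 to 14.84 log2 CPM with S970D, 14.62 to 15.42 with S970A and 14.90 to 15.71 with WT. The S970D and WT ranges of Mov10 did not overlap. Within S970A, replicate 1 was at 14.62 and replicates 2 and 3 at 15.24 and 15.42. The S970D libraries and S970A replicate 1 thus had the lowest Mov10 levels, and the same libraries were lowest for Rdx and Ncoa3. The part of the Mov10 level in the results was not tested. The line expressed the sympathetic and neuronal genes Hand2, Phox2a, Tubb3 and Stmn2 at a mean of 7.98 to 9.75 log2 CPM, while Th and Dbh, the enzymes of catecholamine synthesis, were at -1.09 and -1.29. Of 25 markers of fibroblasts, leukocytes, endothelial, epithelial and glial cells, 8 had a row, none above a mean of 3.09 log2 CPM (Pecam1). The summed CPM of the 10 measured sympathetic markers was 1818 to 2303 with S970D, 1279 to 1965 with S970A and 1130 to 1415 with WT. Hand2, the most abundant of them, was at 10.31 ± 0.26 log2 CPM with S970D and 9.29 ± 0.32 with WT, while 5 of the 10 were below 0 in S970D against WT and their median difference was 0.13. Of the 4 measured neuronal markers 2 were below 0, Map2 (-0.80 ± 0.32, SE) and Snap25 (-0.71 ± 0.30). Cd68, the 1 leukocyte marker with a row, was at 0.64 ± 0.48 log2 CPM with S970D, -0.59 ± 0.44 with S970A and -0.63 ± 0.33 with WT. The part of these markers in the results was not tested. In bulk RNA, fewer cells of a type and less RNA per cell cannot be told apart.

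Per kilobase of transcript the 7 genes spanned a wide range of levels. Averaged over the 9 libraries, Hmga1 stood at 5.54 ± 0.42 and Rdx at 5.34 ± 0.70 on the scale of log2 CPM per kb (mean ± SD over libraries), and their ranges overlapped. The level and rank of Hmga1 are uncertain because of its near-identical copy Hmga1b, described below. Ncoa3 followed at 3.07 ± 0.40, with its highest library (3.53) below the lowest of Rdx (4.42). Trim71 at 2.48 ± 0.42 overlapped Ncoa3, and Arid3b at 1.37 ± 0.30 overlapped Trim71. Igf2bp2 at -0.29 ± 0.31 and Igf2bp3 at -3.82 ± 0.84 also lay below all libraries of the gene above them. Without the correction for length, Rdx exceeded 94.4% of the genes of the table in mean log2 CPM and Igf2bp3 exceeded 6.78%. Trim71 exceeded 77.0% of genes and Igf2bp2 31.1%. With S970D, Rdx averaged 4.68 and Hmga1 5.22 log2 CPM per kb, whereas with WT Rdx averaged 5.92 and Hmga1 5.79.

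The contrast of S970D with WT asks whether transcript levels differ when serine 970 carries a negative charge. Results of this comparison were in view when the genes were chosen, so its values are a description, and nothing is read from the counts past a threshold given for it. Of the 7 genes, 6 were lower with S970D, with a median log2 difference of -0.56 against -0.0019 over all genes. In 4 of them, Rdx, Ncoa3, Igf2bp2 and Trim71, every S970D library lay below every WT library, and 29.3% of all genes did so. None of the 7 passed limma's moderated test at an adjusted p under 0.05 in the fit of all 9 libraries, in which 0.00626% of genes passed, 1 gene in all. At an unadjusted p under 0.05, 3 of the 7 and 7081 of all genes lay in that fit. With the replicate number as a block the count was 3 of 7, all lower, beside 23.3% of all genes lower. Without S970A replicate 1 in the fit it was also 3 of 7 lower, beside 24.9% of all genes.

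Among the RNA-binding proteins, Igf2bp2 encodes a member of the IGF2 mRNA-binding family, which attaches to messages and governs their stability, transport and translation. Igf2bp2 (ENSMUSG00000033581.17, protein-coding, chr16:22059009-22163299, minus strand) had 1.19, 1.38 and 1.40 log2 CPM with S970D, 1.55, 1.81 and 2.10 with S970A, and 1.80, 1.96 and 1.88 with WT. All S970D libraries lay below all others, and the S970A and WT libraries overlapped. The difference was -0.56 ± 0.19 (SE) for S970D against WT, a ratio of 0.680, from 1.33 ± 0.11 log2 CPM with S970D and 1.88 ± 0.080 with WT (mean ± SD, n = 3 each).

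Trim71 (ENSMUSG00000079259.2, protein-coding, chr9:114507133-114564369, minus strand) encodes LIN-41, an RNA-binding ubiquitin ligase of early embryos and stem cells, whose worm ortholog was among the earliest known let-7 targets. Its log2 CPM was 5.66, 4.87 and 5.77 with S970D, 5.17, 6.004 and 5.95 with S970A, and 5.86, 5.86 and 6.14 with WT. S970D replicate 2 and S970A replicate 1 were the lowest libraries, and the S970D and WT libraries came close but did not overlap. S970D against WT gave -0.52 ± 0.29 (SE), a ratio of 0.696, and -0.24 without S970D replicate 2.

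Igf2bp3 (ENSMUSG00000029814.10, protein-coding, chr6:49085223-49214957, minus strand) was the lowest of the 7 genes. Its values were -2.82, -0.98 and -1.37 with S970D, -3.21, -0.63 and -1.69 with S970A, and -1.31, -1.91 and -1.40 with WT. The groups overlapped, and S970D replicate 1 and S970A replicate 1 were the lowest. S970D against WT gave -0.18 ± 0.68 (SE), and 0.36 without S970D replicate 1. Differences at so low a level may be understated if a prior count was added before the log.

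Rdx had the most negative difference of the 7 genes. It encodes radixin, a protein of the ezrin, radixin and moesin family that ties actin filaments to the plasma membrane. Rdx (ENSMUSG00000032050.18, protein-coding, chr9:52047173-52088735, plus strand) had 6.55, 6.91 and 6.98 log2 CPM with S970D, 6.70, 7.95 and 7.996 with S970A, and 7.56, 8.13 and 8.48 with WT. The S970D libraries all lay below the WT libraries, and S970A was divided, with replicate 1 inside the S970D range and replicates 2 and 3 inside the WT range. S970D against WT gave -1.24 ± 0.36 (SE), a ratio of 0.422, and 4.45% of all genes had a lower difference.

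Ncoa3, a coactivator of steroid hormone receptors that is amplified in breast cancer, had a similar arrangement. The gene (ENSMUSG00000027678.17, protein-coding, chr2:165992636-166073242, plus strand) had 5.55, 5.66 and 5.55 log2 CPM with S970D, 5.57, 6.44 and 6.18 with S970A, and 6.12, 6.43 and 6.35 with WT. The 3 S970D libraries and S970A replicate 1 formed a low group, apart from the other 5. S970D against WT gave -0.71 ± 0.21 (SE), a ratio of 0.609.

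Arid3b and Hmga1 encode DNA-binding proteins, and neither had groups apart. Arid3b, a transcription factor with an AT-rich interaction domain (ENSMUSG00000004661.15, protein-coding, chr9:57790353-57836793, minus strand), had 3.58, 3.67 and 2.98 log2 CPM with S970D, 3.87, 3.36 and 3.24 with S970A, and 3.24, 3.17 and 3.77 with WT. The groups overlapped throughout, and S970D against WT gave 0.018 ± 0.26 (SE; 95% interval -0.57 to 0.61). It is the gene with 5 sites and no 8mer.

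Hmga1 encodes an architectural chromatin protein that binds AT-rich DNA through its AT hooks. Hmga1 (ENSMUSG00000046711.16, protein-coding, chr17:27556497-27563674, plus strand) had 5.74, 6.65 and 6.28 log2 CPM with S970D, 6.90, 6.56 and 6.35 with S970A, and 6.31, 7.08 and 6.998 with WT. The groups overlapped, with S970D replicate 1 lowest, and S970D against WT gave -0.57 ± 0.28 (SE), and -0.33 without that library. These values are uncertain because the genome holds a copy, Hmga1b (chr11:120762794-120764419), whose coding sequence is identical over all 321 bases and whose transcript matches Hmga1 at 99.8% of 1538 aligned bases.

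Hmga1b had the higher share of the 2 genes' CPM in every library. It reached 300.1, 148.2 and 300.1 CPM with S970D, 226.5, 231.1 and 215.5 with S970A, and 233.4, 1119 and 149.6 with WT, where WT replicate 2 stood far above the rest. Hmga1 made up 15.1% to 40.4% of the summed CPM with S970D, 27.4% to 34.5% with S970A and 10.8% to 46.1% with WT. Summed over both genes, the level was 8.33 ± 0.32 log2 CPM with S970D, 8.33 ± 0.11 with S970A and 8.90 ± 1.21 with WT (mean ± SD, n = 3). The differences of the sum between groups were thus smaller than the spread within WT.

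**Figure D2:**
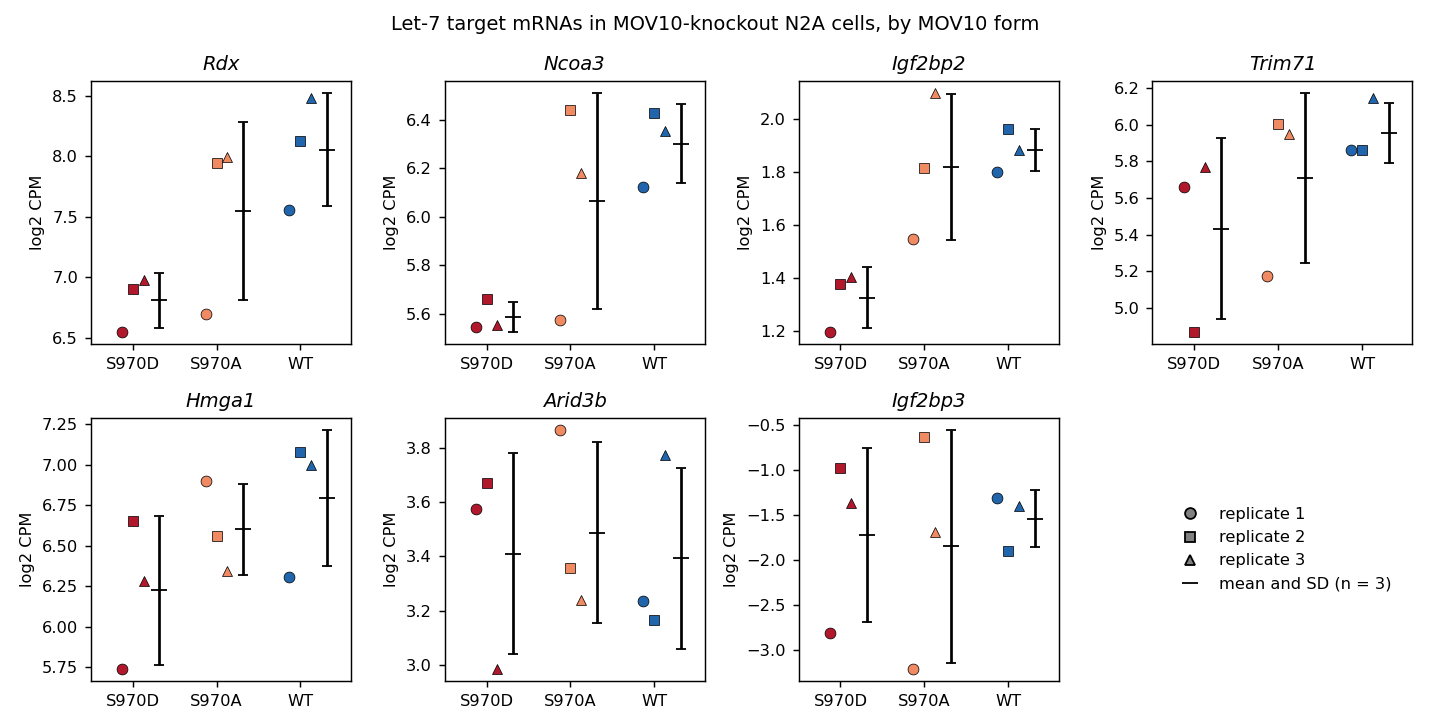
Log2 CPM of the 7 measured genes in each library. Points are libraries, with the replicate number as the symbol, and the black marks are the mean and SD of 3 libraries per group. Rdx and Ncoa3 place S970A replicate 1 near the S970D libraries and S970A replicates 2 and 3 near WT, while Arid3b overlaps throughout.

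**Figure D3:**
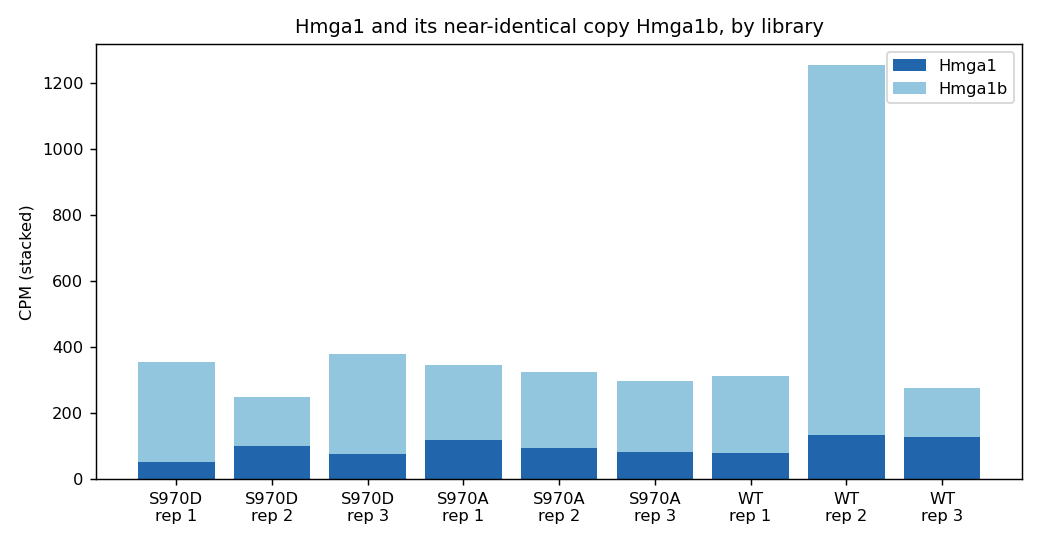
CPM of Hmga1 and of its near-identical copy Hmga1b, stacked, in each of the 9 libraries. Hmga1b takes the larger share everywhere, and WT replicate 2 reaches 1119 CPM of Hmga1b.

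S970A against WT asks whether levels differ when serine 970 cannot be phosphorylated. It shares the WT libraries with the comparison above. None of the 7 genes passed (limma adjusted p from 0.776 to 0.894), and 0.0% of the table did in that fit. At an unadjusted p under 0.05, 0 of the 7 and 280 of all genes lay in it. In none of the 7 genes were the groups apart, where 6.42% of all genes were apart in either direction. The differences ran from -0.51 ± 0.36 (SE) for Rdx and -0.31 ± 0.68 for Igf2bp3 to 0.095 ± 0.26 for Arid3b, and the median of the 7 was -0.24. The 95% interval for Rdx was -1.33 to 0.31.

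Of the 6 negative differences of S970A, 4 changed sign without its replicate 1. Without that library 3 of the 7 were below 0 and the median was 0.0090, with Rdx at -0.084 ± 0.25 (SE), Ncoa3 at 0.0090 ± 0.14, Trim71 at 0.021 ± 0.25 and Igf2bp2 at 0.073 ± 0.17, all with a limma adjusted p of 1.00. Hmga1 was more negative without that library, at -0.34 ± 0.29 (SE).

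S970D against S970A compares the charged with the unphosphorylatable form, with the S970D libraries in common with S970D against WT. None of the 7 genes passed with all 9 libraries (limma adjusted p from 0.411 to 0.916), and 0.0% of the table did. In that fit 1 of the 7 and 1110 of all genes had an unadjusted p under 0.05. Igf2bp2 was the 1 gene of the 7 with groups apart, lower with S970D, where 4.11% of all genes were. Rdx differed by -0.74 ± 0.36 (SE), Igf2bp2 by -0.49 ± 0.19 and Ncoa3 by -0.48 ± 0.21.

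Leaving out S970A replicate 1 gives values that serve as a description only. That library was singled out by its place on the first principal component, with which Rdx, Ncoa3 and Igf2bp2 correlate, and its removal takes the genes past the threshold in the whole table to 6307, against 0 with all 9 libraries. Without it the S970D against S970A difference was -1.16 ± 0.25 (SE) for Rdx, -0.72 ± 0.14 for Ncoa3, -0.63 ± 0.17 for Igf2bp2, -0.54 ± 0.25 for Trim71, -0.56 ± 0.58 for Igf2bp3, -0.23 ± 0.29 for Hmga1 and 0.11 ± 0.25 for Arid3b. The count past the threshold was then 3 of 7, all lower, beside 20.8% of all genes lower.

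**Figure D4:**
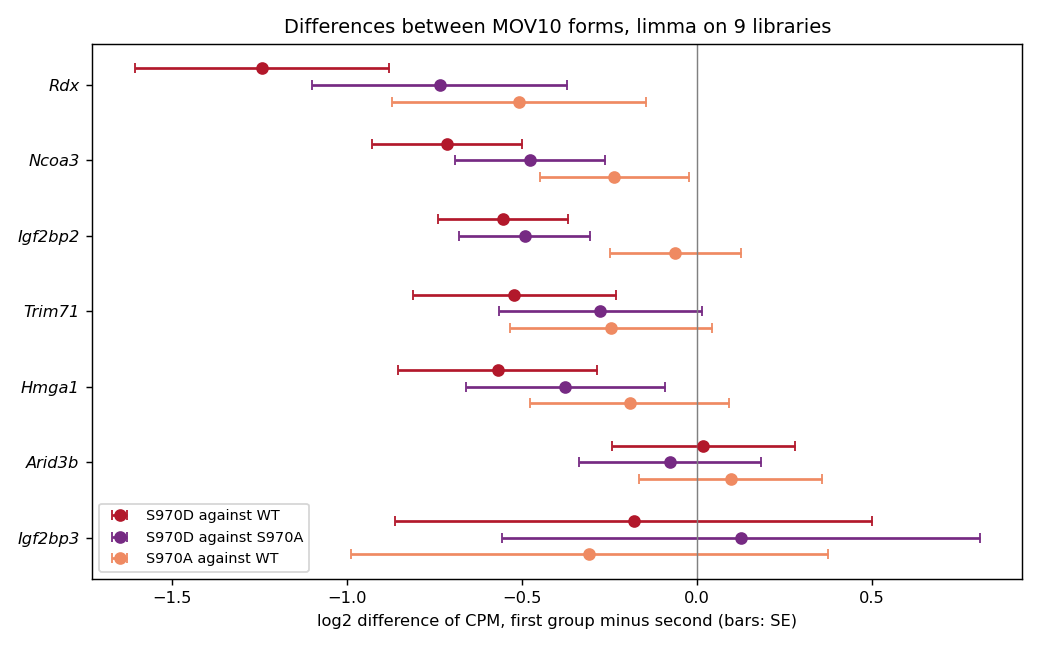
Log2 differences between MOV10 forms for the 7 genes, from limma on all 9 libraries. Points are the first group minus the second and bars are the SE. Rdx has the lowest value in S970D against WT (-1.24), and Arid3b lies near 0 in all 3 comparisons.

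Levels of Ncoa3, Igf2bp2 and Trim71 followed those of Rdx most closely. Over the 9 libraries the log2 CPM of Rdx correlated with that of Ncoa3 at r = 0.95, of Igf2bp2 at 0.89 and of Trim71 at 0.74, and with Hmga1 at 0.51, Igf2bp3 at 0.50 and Arid3b at -0.21. These are descriptions over libraries that share a group and a general trend: Rdx correlated with the first principal component of the table at -0.995, Ncoa3 at -0.95 and Igf2bp2 at -0.91, but Arid3b at 0.27. The gene of the table most like Rdx was Cfap97 (r = 0.999 over 9 libraries), and 2975 of 10855 genes compared had an r above 0.9 with it. Nearest to Ncoa3 was Dnajc28 (0.99), to Igf2bp2 Nap1l4 (0.99) and to Trim71 Wrb (0.98). Fewer genes resembled the others: Elp3 was nearest to Hmga1 (0.93), Spsb4 to Igf2bp3 (0.91) and Cdv3 to Arid3b (0.91), with 3, 2 and 1 genes above 0.9. The authors' deposited table places Rdx, Ncoa3, Igf2bp2 and Trim71 in the cluster it calls turquoise, which holds 18.5% of the table, and the other 3 in no cluster.

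Transcript length and base composition moved with these differences, and their part in them was not tested. The Rdx transcript has 4380 bases and 44.1% GC, and 371 genes of like length (within 0.25 on the log2 scale) and GC content (within 1.5 points) had a median difference of -0.63 in S970D against WT, with quartiles of -0.96 and -0.31. The -1.24 of Rdx lay below these quartiles. Ncoa3 (7531 bases, 50.3% GC) lay at -0.71 within the quartiles of its 163 like genes, -0.79 and -0.11, and Trim71 (9332 bases, 53.8% GC) at -0.52 within those of its 48, -0.55 and 0.016. Igf2bp2 at -0.56 was below its quartiles of -0.47 and 0.15, and Igf2bp3 at -0.18 was above its quartiles of -0.87 and -0.26. Hmga1 stood farthest from its like genes. At 2001 bases and 61.4% GC, 167 genes like it had a median of 0.73 and Hmga1 had -0.57, with the reservation about its copy. Arid3b lay inside its quartiles.

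After a trend fitted over GC content and transcript length was subtracted within libraries, the S970D against WT difference was -0.68 ± 0.20 (SE) for Rdx, -0.39 ± 0.13 for Igf2bp2, -0.36 ± 0.12 for Ncoa3, -0.36 ± 0.24 for Trim71 and -1.24 ± 0.34 for Hmga1. Igf2bp3 changed sign, to 0.30 ± 0.60, and Arid3b was at 0.0050 ± 0.26. After the subtraction 5 of the 7 were below 0, against 6 before it, and the median of the 7 was -0.36. With the subtraction alone 0 of the 7 were past the threshold, and 0 of all genes. With the replicate block added, 3 of 7 were past the threshold as lower, beside 11.7% of all genes. These were Rdx, Ncoa3 and Hmga1, the last with the reservation about its copy. With the block alone they were Rdx, Ncoa3 and Igf2bp2.

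**Figure D5:**
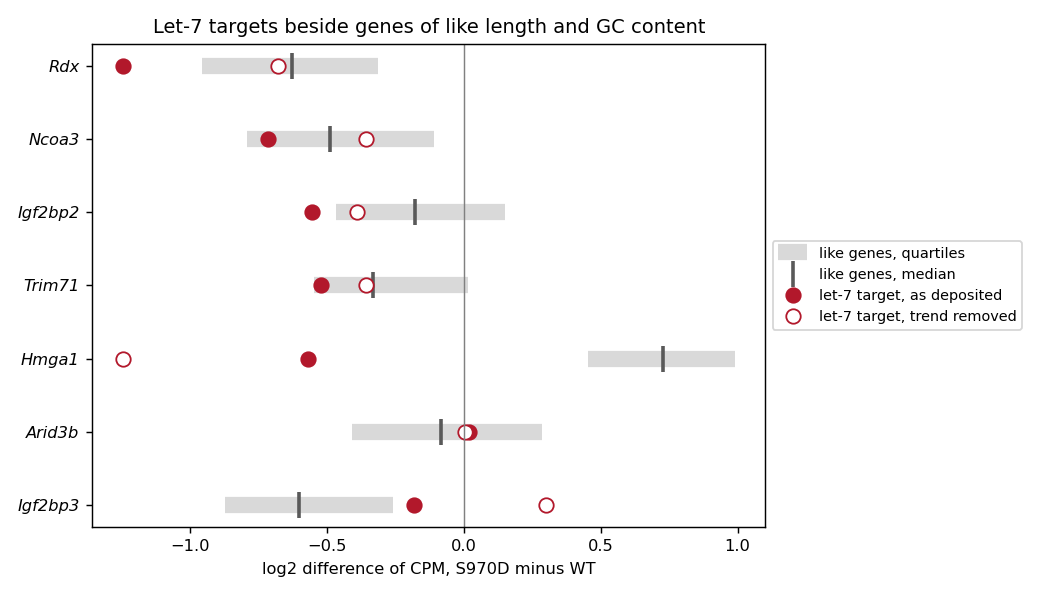
S970D minus WT log2 difference of the 7 genes beside genes of like transcript length and GC content. Filled points are the deposited values, open points the values after the trend over length and GC was removed (to be read against 0), and grey bars and ticks the quartiles and median of the like genes. Hmga1 (-0.57) lies far below its like genes (median 0.73), and Trim71 and Ncoa3 lie within theirs.

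Genes with let-7 sites across the whole table give the frame for these values. In S970D against WT the 419 genes with an 8mer had a median log2 difference of -0.26, the 1564 with only 7mers -0.28, and the 11008 with no site 0.0022. The 3 classes differ in length, with median transcripts of 4405, 4234 and 2778 bases. With genes split into 3 sets of like size by 3′ UTR length, in the set with the longest the medians were -0.37 for 279 genes with an 8mer, -0.42 for 1022 with only 7mers and -0.43 for 3028 with no site. In the middle set they were -0.14, -0.093 and -0.099, and in the shortest set 0.56, 0.36 and 0.44. After removal of the trend the medians over all lengths were -0.031, -0.047 and -0.019. Of the 18 genes with 2 or more 8mers, which include Trim71 with 4, 15 were lower with S970D and their median was -0.51. This set was not compared with genes of like 3′ UTR length, and no median after trend removal was taken for it. The 3 genes with 3 8mers were Fign at -1.24, Nr6a1 at -0.46 and Fignl2 at 0.12. In S970A against WT the medians by class, with S970A replicate 1 included, were -0.12, -0.10 and -0.00018. In the set with the longest 3′ UTRs they were -0.15, -0.16 and -0.16. The middle set had -0.087, -0.049 and -0.042, and the shortest 0.22, 0.14 and 0.16. After removal of the trend they were 0.0024, 0.0042 and -0.00044 over all lengths.

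Of other conserved let-7 targets, 41 of the 44 listed had a row, and none passed in any of the 3 comparisons in the fit of all 9 libraries. In S970D against WT 34 of the 41 were below 0, with a median of -0.34, and 18 lay wholly below and 4 wholly above the WT libraries, where 29.3% of all genes lay wholly below and 27.9% wholly above. With the replicate block 15 passed as lower and 4 as higher, where 23.3% of all genes passed as lower and 22.2% as higher. These shares apply equally to the lists that follow. Neither this list nor those that follow were compared with genes of like transcript length and GC content, so their medians are descriptions only. Dna2, a nuclease and helicase of DNA replication, was at 4.57 ± 0.041 log2 CPM with S970D, 4.91 ± 0.27 with S970A and 5.19 ± 0.010 with WT. Nme6, a nucleoside diphosphate kinase gene, went the other way, at 5.10 ± 0.17 with S970D, 4.51 ± 0.71 with S970A and 3.94 ± 0.042 with WT. In S970A against WT, with S970A replicate 1 included, 31 of 41 were below 0, with a median of -0.15.

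Let-7 is cut from its precursors by Drosha and Dicer and held back by LIN28. Of 13 measured genes of let-7 biogenesis and its control, 9 were below 0 in S970D against WT, with a median of -0.23, and 5 lay wholly below and 2 wholly above WT. Those below included Dgcr8, the partner of Drosha, at 4.55 ± 0.21 log2 CPM with S970D and 5.40 ± 0.036 with WT, and Lin28b at 4.47 ± 0.20 with S970D and 5.51 ± 0.29 with WT. Lin28b and Dicer1 were also counted among the other conserved let-7 targets above. Of the 8 Argonaute, GW182 and FMRP genes, 7 were below 0 and wholly below WT, with a median of -0.48, led by Tnrc6a (6.19 ± 0.088 with S970D and 7.21 ± 0.35 with WT) and Fmr1 (4.87 ± 0.13 with S970D and 5.58 ± 0.22 with WT). No gene of either list passed with all 9 libraries. With the replicate block, 5 of the 13 biogenesis genes and 2 of the 8 silencing genes passed as lower, beside 23.3% of all genes.

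Relatives of the members were chosen for family or name and not for let-7 sites. Hmgb1, Hmgb2, Hmgn1 and Hmgn2 share with Hmga1 the high mobility group name, but belong to other protein families. Of 13 such genes 10 were below 0, with a median of -0.41, and 6 lay wholly below and 2 wholly above WT, beside 29.3% and 27.9% of all genes. With the replicate block 6 passed as lower and 2 as higher, beside 23.3% and 22.2% of all genes. Ncoa2, a relative of Ncoa3, was at 3.96 ± 0.13 log2 CPM with S970D, 4.80 ± 0.82 with S970A and 5.26 ± 0.43 with WT, a difference of -1.29 ± 0.38 (SE) against WT. The chromatin protein gene Hmgn2 was higher by 0.50 ± 0.18. Of 11 partners and client messages of the IGF2BP proteins, 9 were below 0 with a median of -0.27, among them Syncrip (-1.14 ± 0.31) and Elavl1 (-1.02 ± 0.21), which encode RNA-binding proteins. Myc, a client message, was also counted among the other conserved let-7 targets. With the block 4 of the 11 passed as lower and 1 as higher, beside the same shares of all genes. No gene of either list passed with all 9 libraries in any comparison.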

How the data were processed

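The authors deposited 1 table of log2 CPM with 1 column per library and replicates not pooled; its prior count, its scaling and its filter on low values are not given. Per the submitters' processing notes, GRCm38, Salmon 1.1.0, R 3.6.3 and bcl2fastq 2.20 were used, in roles not stated. The genes and all lists were chosen with earlier results of these data known. Of the 200 lowest CPM values above a library's minimum, at most 12.5% lay a whole number of smallest steps above it (tolerance 0.05), so no reads were recovered and depth and its precision are unknown. Turned back to CPM, columns sum to between 955214 and 1069215.

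All 15977 genes entered limma 3.58.1 (R 4.3.3) on the deposited values of 9 libraries, with the group as the term, 6 residual degrees of freedom, an intensity trend, two-sided tests and p-values adjusted by Benjamini-Hochberg across the table, with 0.05 as the threshold. The code was tested on simulated data. Alternatives were a pseudocount of 1 CPM, a mean log2 CPM of at least 1, quantile normalization, only the 6 libraries compared, the replicate block, each library left out, and removal of the trend over GC content and length (splines of 5 degrees of freedom, 15959 genes). The pairing was checked by correlating the deviations of same-numbered libraries from their group means. For S970D and WT the 3 pairs gave 0.31, 0.11 and 0.16, each above the bound of 0.1. Libraries with unlike numbers were not correlated for reference. The first principal component fell from replicate 1 to replicate 3 in both groups, from 0.44 to 0.25 with S970D and -0.044 to -0.46 with WT. A like order along it raises these correlations, so the check cannot show that label numbers pair libraries. The block, which also takes in the S970A libraries, serves as an alternative only. S970A and WT gave 0.59, 0.067 and 0.49, and S970D and S970A gave 0.38, 0.0043 and 0.24, each with a pair under the bound.

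Genes named beside the members came from fixed rules: the 2 genes of a list with the largest moderated statistic in S970D against WT, and for each target the gene with the highest Pearson r among genes averaging 1 or more log2 CPM that are not predicted models. The 1 match shown per gene followed the rule given with the sequences. Fign, Nr6a1 and Fignl2, Hmga1b and the markers given with levels were picked after their values were seen.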

Additional observations from a re-analysis of the deposited data

How the results depend on the processing

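In S970D against WT, 0 of the 7 genes passed with all 9 libraries. With the replicate block 3 passed, beside 7276 of all 15977 genes in either direction. With only the 6 libraries of the comparison 3 passed, beside 6727 of all genes in either direction. In both cases the 3 were Rdx, Ncoa3 and Igf2bp2. Subtraction of the fitted GC and length trend combined with the block also gave 3, with Hmga1 in place of Igf2bp2, beside 3851 of 15959 genes. The subtraction without the block gave 0. The pseudocount, the filter on mean log2 CPM and quantile normalization each gave 0 as well. Under each of these settings at most 1 gene of the whole table passed. Leaving out 1 library gave 0 to 3, with 3 only without S970A replicate 1, where 7615 of all genes passed. In S970D against S970A the count was 0, and 0 to 3 with a library left out. It was again 3 without S970A replicate 1, where 6307 of all genes passed. In S970A against WT it was 0 under every alternative listed. The block changed no other call: in the comparisons with S970A the count with it stayed 0. In no comparison were the label numbers shown to pair libraries.

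The signs of Rdx and Hmga1 held in all 3 comparisons under the alternatives run. After subtraction of the GC and length trend, with or without the block, Igf2bp2 was at 0.0061 in S970A against WT, against -0.062, and Igf2bp3 was at 0.30 in S970D against WT, against -0.18. With a library left out, differences in S970A against WT changed sign within ranges of -0.20 to 0.073 for Igf2bp2, -0.91 to 0.38 for Igf2bp3, -0.39 to 0.021 for Trim71, -0.094 to 0.29 for Arid3b and -0.43 to 0.0090 for Ncoa3. In S970D against S970A the ranges were -0.56 to 0.73 for Igf2bp3, -0.54 to 0.0063 for Trim71 and -0.21 to 0.14 for Arid3b, and in S970D against WT -0.55 to 0.36 for Igf2bp3 and -0.11 to 0.23 for Arid3b. Trim71 kept its sign in S970D against WT but ranged from -0.69 to -0.24, and Hmga1 from -0.81 to -0.33. The cause was not tested. Igf2bp3 lies below a mean log2 CPM of 1 and gives no value under that filter.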
